A study of Mus musculus with 1483 samples.

Results

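The comparison set neurons labelled by the enhancer eHGT_140h against neurons labelled by the enhancer eHGT_128h. All cells that carry 1 of these genotype labels were taken, which gave 137 cells from 3 mice of eHGT_140h and 147 cells from 3 mice of eHGT_128h, or 284 of the 1483 cells in the series. The rest of the series holds cells of 9 further enhancers, and there are 33 mice in all. A second, gated comparison kept the cells with Pvalb at 300 or more and Sst under 300 counts per 1000000 reads (CPM), which left 131 and 126 cells.

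Adeno-associated virus was used in C57Bl/6J mice to express the yellow fluorescent protein SYFP2 under the control of 1 enhancer. Fluorescent single cells were sorted from the tissue labelled VISp, a name for the primary visual cortex, and their polyadenylated RNA was made into SMARTer v4 libraries. Both groups share the strain, the tissue, the reporter and the sort, and the label that separates them is the enhancer. A group is a set of sorted cells, so its mean depends on which cells fluoresced as well as on what each cell expressed. Age, sex and the route of the virus are not in the labels. The groups shared 0 library prefixes, so enhancer and library prefix cannot be told apart.

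The mice of eHGT_140h are called MouseID-460763, MouseID-473543 and MouseID-505190 in the labels and gave 46, 43 and 48 cells. Those of eHGT_128h are called MouseID-468101, MouseID-473546 and MouseID-475243 and gave 47, 47 and 53 cells, the last above the 48 per mouse that the design text allows for. Prefixes began with the letter G in 5 of the 6 mice and with J in MouseID-505190, which shares its prefixes with a mouse of another enhancer, eHGT_079h. The shallowest cell had 73906 reads, the deepest 888818 and the median cell 600569, and total reads per mouse ranged from 22802198 to 35856031. In the median cell 1 read was 1.67 CPM. The reads carry no molecular identifiers, so limits drawn from counts cover counting error only.

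Parvalbumin interneurons are the fast-spiking inhibitory cells of the cortex and mostly arise from the medial ganglionic eminence, as do somatostatin interneurons. They are named for the calcium buffer that Pvalb encodes, and Sst encodes the peptide somatostatin that marks the other class. Both classes have subtypes that differ in neuropeptides, calcium-binding proteins and adhesion molecules. Enhancer viruses are used to reach such classes or parts of them, and 2 enhancers that label the same class can label different parts of it.

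Sequence is shown for Cartpt, the labelling marker that passed the test, and for Sst, a labelling marker that the gate uses beside Pvalb. Both genes have the letters of the cyclic AMP response element just before their RefSeq start. GENCODE vM21 starts both genes further upstream, so by that annotation the sites lie within the gene spans. The 30 bases around the letters TGACGTCA, which are in capitals, are given 5′ to 3′ on the minus strand that both genes use, from RefSeq promoters of build GRCm38.p6. The Cartpt site is at chr13:99900777-99900806 and the Sst site at chr16:23890874-23890903.
Cartpt: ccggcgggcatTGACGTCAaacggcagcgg
Sst: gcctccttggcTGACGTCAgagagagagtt
The match begins 112 bases before the RefSeq start of Cartpt and 48 bases before that of Sst. These 8 letters, which read the same on both strands, occur in the 250 bases before the start in 508 of 32851 promoters (1.55%). Of the 32 genes named by rule or from the lists, 27 have a promoter in the table, and these 2 hold the match. The enhancers' own sequences were not analysed here.

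Both enhancers labelled GABAergic neurons with a high level of Pvalb. Gad1 and Gad2, which encode the enzymes that make GABA, were at 10 CPM or more in 137 of 137 and 147 of 147 cells. Lhx6, a transcription factor of interneurons from the medial ganglionic eminence, reached 10 CPM in 134 of 137 cells of eHGT_140h and in 147 of 147 of eHGT_128h. Slc17a7, which loads glutamate into the vesicles of excitatory neurons, reached 100 CPM in 1 cell of eHGT_140h and in 0 of eHGT_128h. In each group 6 cells were under 300 CPM of Pvalb, so the markers fit the name Pvalb enhancer for most cells of both groups.

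Mean Pvalb per mouse was 2264, 2330 and 2345 CPM in eHGT_140h and 2145, 2219 and 2458 CPM in eHGT_128h. The groups overlap and the log2 difference was 0.03 (SE 0.08, limma adjusted p = 0.9998). Mybpc1, a myosin-binding protein gene and another of the labelling markers, stood at 96.5, 83.8 and 92.0 CPM against 72.5, 76.3 and 102.6 CPM. These groups overlap as well, with a log2 difference of 0.13 (SE 0.16).

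Sst was less even between mice. Mean Sst was 1.35, 357 and 0.08 CPM in the mice of eHGT_140h and 486, 194 and 226 CPM in those of eHGT_128h. MouseID-473543 of eHGT_140h lies inside the range of eHGT_128h and the other mice of eHGT_140h lie far below it. In MouseID-473543 the level came almost wholly from 2 cells, at 14640 and 482 CPM. The log2 difference of -4.85 had an SE of 2.57 and did not pass (limma adjusted p = 0.99). Without that mouse Sst was among the 20 genes called.

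**Figure D1:**
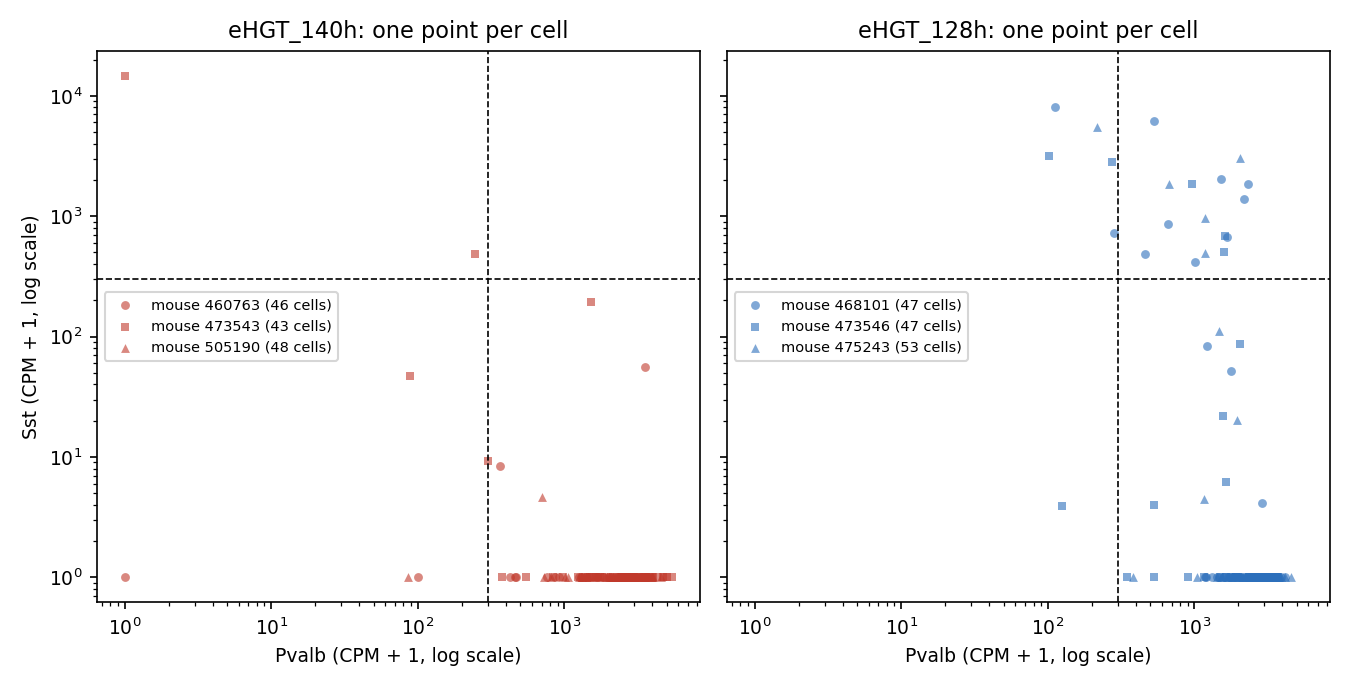
Pvalb against Sst in each cell (CPM + 1, both axes on a log scale), eHGT_140h on the left and eHGT_128h on the right, with 1 point per cell, 1 symbol per mouse and dashed lines at 300 CPM. The upper right field holds 0 cells of eHGT_140h and 15 of eHGT_128h.

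At a threshold of 300 CPM, all cells with both transcripts came from mice of eHGT_128h. Pvalb and Sst both reached 300 CPM in 8 of 47, 3 of 47 and 4 of 53 cells of the mice of eHGT_128h, a share of 10.3% ± 5.84 (SD, n = 3). In eHGT_140h this was 0 of 137 cells. An upper limit of 2.19% on that share takes the cells as independent, which cells of the same mouse are not. Each mouse of eHGT_128h had such cells and no mouse of eHGT_140h did. The 2-sided exact permutation test over mice gave p = 0.1, the smallest that 3 against 3 can give, and 0.2 after adjustment over the 4 shares tested. At a threshold of 100 CPM for both genes, eHGT_140h also had such cells, with mean shares of 1.55% against 14.4%. At 1000 CPM the mean shares were 0% against 2.76% (exact permutation p = 0.4), and MouseID-473546 of eHGT_128h no longer had such cells.

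The gated share was 95.7%, 93.0% and 97.9% in eHGT_140h and 78.7%, 87.2% and 90.6% in eHGT_128h. Every mouse of eHGT_140h was above every mouse of eHGT_128h, and the means were 95.5% ± 2.45 and 85.5% ± 6.11 (SD, n = 3 each, exact permutation p = 0.1, adjusted 0.2). At a threshold of 1000 CPM for both genes the direction turned, with 84.5% against 86.1%. Cells with Sst alone numbered 2 and 5 (exact permutation p = 0.4), and cells below 300 CPM for both numbered 4 and 1 (p = 0.2 by the same exact test).

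Few cells lay near the gate. The closest Pvalb values below 300 CPM were 245, 276 and 284 CPM and the closest above were 303, 347 and 366 CPM. For Sst they were 86.3, 110 and 191 CPM below and 418, 480 and 482 CPM above.

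The 15 cells with both transcripts differed from the gated cells in further genes. Synpr, a synaptic vesicle protein gene, had a median of 1297 CPM in them and 0 CPM in the gated cells of eHGT_128h. Calb1, the calcium-binding protein calbindin, had a median of 3492 CPM and reached 100 CPM in 14 of the 15, against 57 of 126 gated cells. Cbln4, a synaptic organiser found in Sst cells, reached 100 CPM in 7 of 15 and in 0 of 126. The peptide precursor Tac1 was at 0 CPM in every one of the 15 cells, while 58 of the 126 gated cells reached 100 CPM. Cartpt stayed at or under 34.2 CPM in all 15. The 5 cells of eHGT_128h with Sst alone were like them, with Synpr at 949 to 2085 CPM, Calb1 at 2114 to 4591 CPM, Tac1 at 0 and Cartpt at 50.6 CPM or less.

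In depth the cells with both transcripts were near the gated ones. They had a median of 693439 reads and 9882 genes, and the gated cells of eHGT_128h had 625361 reads and 9844 genes. No doublet caller was run.

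The cells of eHGT_140h outside the gate were 6. One, in MouseID-460763, had Lamp5 at 1027 CPM and Adarb2 at 747 CPM, both genes of interneurons that arise mostly from the caudal ganglionic eminence, with Pvalb, Sst and Lhx6 at 0. In MouseID-473543, 1 cell had Sst at 14640 CPM and Pvalb at 0. Another cell of MouseID-473543 had Pvalb at 245 CPM beside Sst at 482 CPM and Tac1 at 2263 CPM. Of the 6 cells of eHGT_128h outside the gate that did not hold both transcripts, 5 had Sst between 721 and 8029 CPM, and all 6 had Calb1 at 1609 CPM or more.

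Over all cells, 14320 genes had at least 1 CPM in at least 2 of the 6 mice and were tested by limma on log2(mean CPM per mouse + 1). At an adjusted p under 0.05 and a log2 difference of at least 1 in size, 9 genes were called (0.0628% of those tested), of which 3 were higher in eHGT_140h (0.0209%) and 6 lower (0.0419%). The genes higher were Fxyd6, Cartpt and AW551984, and the genes lower were Tnni3k, Sfrp2, Rxfp3, Prkg2, Sema6d and Sema3a. Log2 differences below are on this log2(CPM + 1) scale, which understates the change of low genes. Groups without overlap were frequent, since all 3 mice of eHGT_140h were above all 3 of eHGT_128h for 5.30% of genes tested and below for 5.18%. Of the 20 assignments of mice, 1 puts a given group wholly above the other. Shares near these would therefore be seen in each direction without any difference.

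The calls rested on 6 mice and on how the spread was estimated. No gene was called when the fit held all 33 mice (472 at an unadjusted p under 0.05), when it also held the prefix letter (561), or by limma voom on the reads recovered from the CPM (772, against 770 in the limma fit reported here). About 1 gene in 20 would reach an unadjusted p under 0.05 without any difference. Leaving out 1 mouse at a time gave between 1 and 26 calls.

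**Figure D2:**
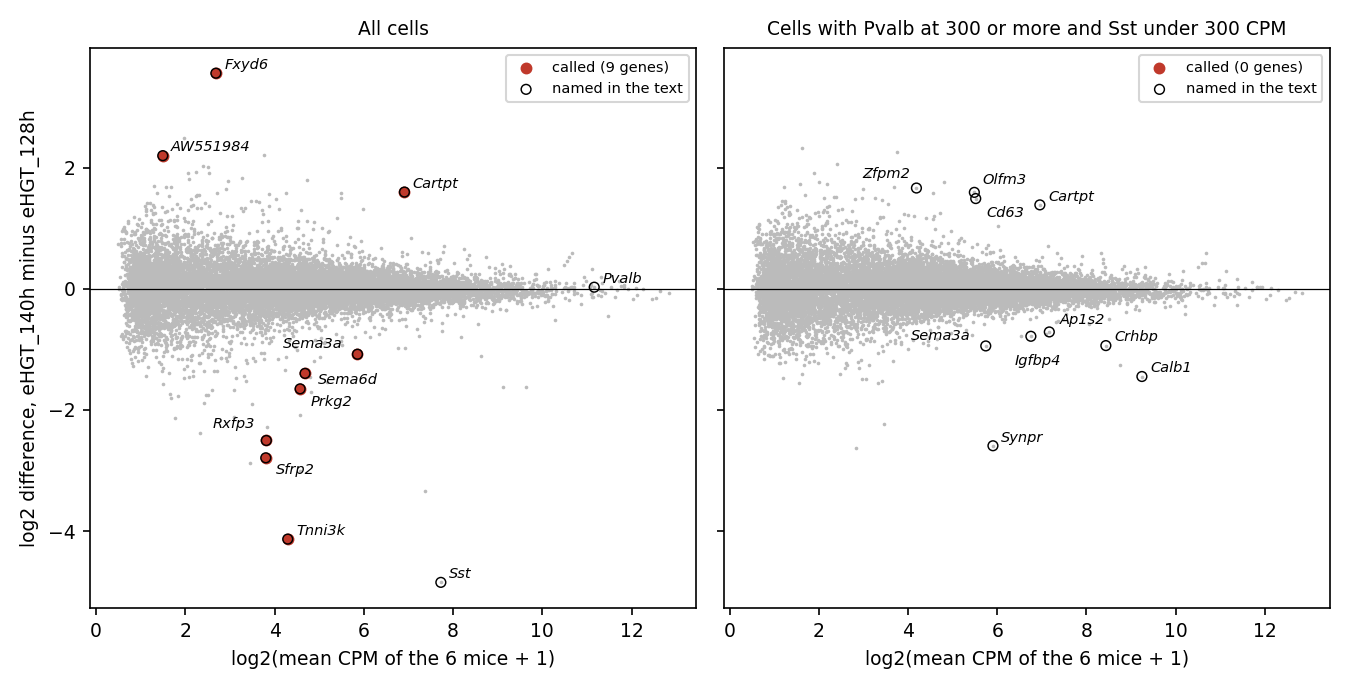
The log2 difference between enhancers (eHGT_140h minus eHGT_128h) against the mean level of the 6 mice on a log2(CPM + 1) scale, with 1 point per gene, for all cells on the left and gated cells on the right. The 9 genes called over all cells are filled, and 0 genes are called among the gated cells.

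Cartpt was the 1 called labelling marker. It encodes the precursor of the CART peptides (chr13:99898489-99901091 in GENCODE vM21 on GRCm38, protein coding, minus strand). Its mean was 195, 153 and 188 CPM in eHGT_140h and 83.0, 43.2 and 54.2 CPM in eHGT_128h. The lowest mouse of eHGT_140h was above the highest of eHGT_128h, and the log2 difference was 1.598 (SE 0.21, limma adjusted p = 0.038). Without overlap, leaving out 1 mouse could not turn the direction. The direction held in all 15 alternatives run, with differences between 1.39 and 1.97, and the call in 6 of them (limma adjusted p from 0.011 to 1). Removing MouseID-460763, MouseID-473546 or MouseID-475243 ended the call (adjusted p of 0.27, 0.14 and 0.16 in limma), whereas the 5 mice of letter G alone gave 1.56 with an adjusted p of 0.034.

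Fxyd6 was carried by very few cells. It encodes a small regulator of the sodium pump (chr9:45370185-45396159). Its mean was 11.2, 12.2 and 9.17 CPM in eHGT_140h and 0 in all 3 mice of eHGT_128h. There 3 reads over the group would have been 0.0322 CPM, a ratio of mean CPM of at least 337-fold by read counting alone. That limit leaves out which cells were sorted. Being at 0 in eHGT_128h, Fxyd6 met the minimum of 1 CPM in 2 mice through eHGT_140h alone, as did AW551984, so the calls of these 2 genes rest in part on that minimum. Only 8 of 137 cells of eHGT_140h had a read of it, and the 5 highest held 94.9% of its summed CPM. The 6 cells outside the gate held 86.0% of that sum. Gated cells gave 0, 3.67 and 1.28 CPM against 0, and these groups overlap. Fxyd6 and AW551984 fell outside the rule for named genes and were singled out after their values were seen.

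AW551984, a protein-coding gene known by this symbol (chr9:39587396-39604403), stood at 4.50, 3.49 and 2.92 CPM against 0. By the same limit of read counting alone, the ratio of mean CPM was at least 113-fold. It had reads in 9 cells of eHGT_140h, and the 5 highest held 81.6% of its sum. In 2 other groups Fxyd6 ranged widely, at 130 and 52.2 CPM in the mice of eHGT_082h and 0.37, 84.2 and 46.9 CPM in those of eHGT_079h.

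The genes lower in eHGT_140h differed in how much of their level in eHGT_128h came from cells with Sst. Those cells, at 300 CPM or more of Sst, were 20 of 147, or 13.6%. They held 70.6% of the summed CPM of Tnni3k, 68.7% of Sfrp2, 62.0% of Rxfp3, 48.0% of Prkg2, 38.6% of Sema6d and 21.2% of Sema3a. The share also varied between mice, from 36.7% to 93.2% for Rxfp3 and from 27.6% to 89.6% for Sfrp2, with MouseID-473546 the lowest for both. What part of each difference those cells account for was not tested beyond the gated values given with each gene.

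Tnni3k encodes a kinase best known from heart muscle (chr3:154786291-155055407). Its mean was 0, 0.45 and 4.94 CPM in eHGT_140h and 43.6, 34.5 and 28.3 CPM in eHGT_128h, a log2 difference of -4.13 (SE 0.55, limma adjusted p = 0.038). Among gated cells it was 0, 0 and 5.05 CPM against 9.97, 14.6 and 7.29 CPM. The groups do not overlap in either set of cells, and the gated difference of -2.63 did not pass.

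Rxfp3, the receptor of the peptide relaxin-3 (chr15:11033717-11037991), stood at 3.49, 3.02 and 2.88 CPM against 24.3, 28.9 and 15.9 CPM. The log2 difference was -2.50 (SE 0.27, limma adjusted p = 0.015). Among gated cells the values were 2.08, 0.50 and 2.94 CPM against 2.10, 13.03 and 6.93 CPM, and the groups overlap. MouseID-473546, the highest for Rxfp3 in both sets, had 36.7% of its sum in cells with Sst.

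Sfrp2, a secreted modulator of Wnt signalling (chr3:83766321-83774316), stood at 2.06, 3.45 and 1.76 CPM against 35.5, 17.6 and 17.4 CPM. The log2 difference was -2.79 (SE 0.33, limma adjusted p = 0.025). Gated cells gave 2.16, 2.996 and 1.80 CPM against 4.72, 11.98 and 6.19 CPM, without overlap and without a call.

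Prkg2, a cyclic GMP-dependent kinase (chr5:98929773-99037351), had means of 10.5 ± 2.71 and 35.1 ± 6.86 CPM (SD, n = 3 each), a log2 difference of -1.65 (limma adjusted p = 0.049). In gated cells these were 9.64 ± 0.76 and 20.6 ± 5.05 CPM. The mice do not overlap in either set.

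The semaphorins Sema3a (chr5:13125414-13602565) and Sema6d (chr2:124089969-124667770) encode axon guidance cues, secreted and membrane-bound. Sema3a stood at 36.01, 35.8 and 36.4 CPM in eHGT_140h and at 75.7, 91.8 and 66.6 CPM in eHGT_128h, a log2 difference of -1.08 (SE 0.16, limma adjusted p = 0.049). The mice of eHGT_140h were nearly alike. Of the 6 lower genes Sema3a moved least when the gate was applied, with 36.4, 32.5 and 37.2 CPM against 60.7, 86.9 and 61.7 CPM and a difference of -0.94 that did not pass. Sema6d stood at 13.2 ± 2.51 against 36.2 ± 4.001 CPM (SD, n = 3 each) over all cells and at 12.9 ± 2.04 against 25.5 ± 6.97 CPM in gated cells.

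**Figure D3:**
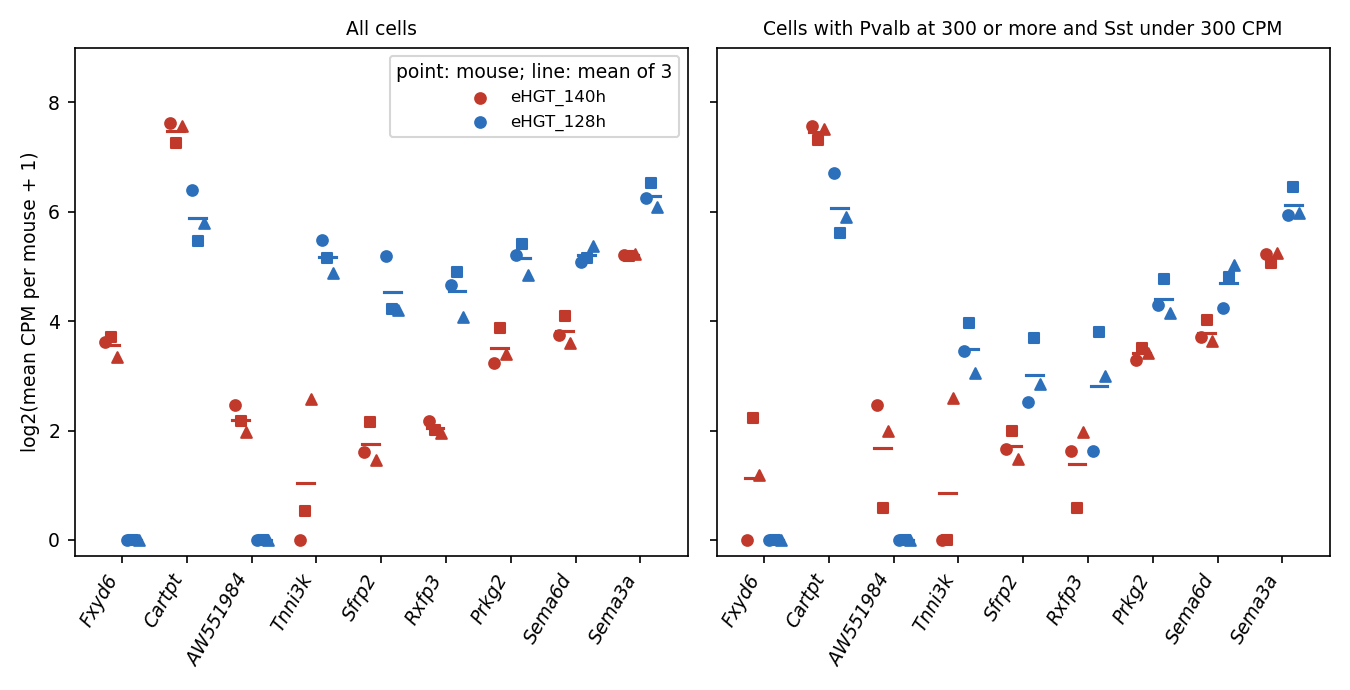
Levels of the 9 genes called over all cells, as log2(mean CPM per mouse + 1), with 1 point per mouse, 1 symbol per mouse within a group and a line at the mean of 3 mice, for all cells on the left and gated cells on the right. In gated cells the mice of the groups overlap for Rxfp3 and Fxyd6 and do not for the other 7 genes. Of the 9, 0 are called there. Over all genes tested in gated cells, 5.01% had all mice of eHGT_140h higher and 4.82% lower. The 9 were picked by their p over all cells, most of which are the gated cells, so the 7 are no separate support.

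Igfbp4, a binding protein of insulin-like growth factors, passed the p but not the size of difference. It stood at 80.7, 84.2 and 76.3 CPM against 175, 160 and 145 CPM, a log2 difference of -0.98 (SE 0.12, limma adjusted p = 0.033).

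In the gated comparison, which leaves out Pvalb and Sst because the gate uses them, 0 of 14266 genes were called by limma (0%), with 633 at an unadjusted p under 0.05. Limma voom on recovered reads called 0 as well, with 599 at that level. All 3 mice of eHGT_140h were above all 3 of eHGT_128h for 5.01% of these genes and below for 4.82%. Leaving out MouseID-505190, the mouse of letter J, gave 6 calls (Npy, Calb1, Tnni3k, Synpr, Zfpm2 and Hs6st3), and leaving out MouseID-468101 gave 1 (Cartpt). A gate at 1000 CPM gave 1 call, Synpr.

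By the gate, Pvalb was 2365, 2497 and 2393 CPM in eHGT_140h and 2433, 2429 and 2604 CPM in eHGT_128h, and Sst was 1.41, 4.99 and 0.08 CPM against 3.69, 2.81 and 2.76 CPM. The 10 genes with the smallest p among those with a mean of at least 20 CPM and no overlap were Synpr, Igfbp4, Cd63, Cartpt, Crhbp, Olfm3, Sema3a, Calb1, Zfpm2 and Ap1s2. None passed in the fit reported here. Over the 17 alternatives run, Synpr passed in 2 and Cartpt, Calb1 and Zfpm2 in 1 each, and none of the 10 changed its direction. Since they were picked for not overlapping, neither the lack of overlap nor the kept direction is a result for them.

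Cartpt was again among the genes higher in eHGT_140h. Gated cells gave 188, 158 and 181 CPM against 104, 47.8 and 59.1 CPM, a log2 difference of 1.39 (SE 0.24) with a limma adjusted p of 0.34, which was 0.038 over all cells. The difference ranged from 1.15 to 1.70 over the alternatives. More cells had it: 21 of 44, 21 of 40 and 24 of 47 gated cells reached 100 CPM in eHGT_140h, and 10 of 37, 7 of 41 and 8 of 48 in eHGT_128h. These shares, 50.4% ± 2.45 and 20.3% ± 5.87 (SD, n = 3 each), do not overlap and are given without a test, since Cartpt was picked for no overlap in gated cells. In the cells that reached 100 CPM the mean Cartpt level was 364, 268 and 314 CPM against 285, 199 and 223 CPM, and here the groups overlap.

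Cd63 (chr10:128900989-128912822), a tetraspanin of endosomes and secreted vesicles, was at 65.6, 58.5 and 73.4 CPM in gated cells of eHGT_140h and at 24.97, 14.7 and 31.7 CPM in those of eHGT_128h. It reached 100 CPM in 10, 8 and 11 cells against 1, 1 and 4. The log2 difference of 1.49 (SE 0.25) had a limma adjusted p of 0.34. Olfm3, an olfactomedin that binds glutamate receptors, stood at 54.1, 105 and 43.2 CPM against 17.1, 24.2 and 19.6 CPM, and Zfpm2, a transcriptional cofactor of GATA factors, at 26.9, 41.1 and 13.8 CPM against 8.27, 6.10 and 7.29 CPM. MouseID-473543 was the highest for both, and MouseID-505190 the lowest of its group.

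Calb1 (chr4:15881264-15908064) was among the genes higher in eHGT_128h. Gated means were 196, 285 and 549 CPM against 997, 694 and 907 CPM, a log2 difference of -1.45 (SE 0.29, limma adjusted p = 0.47). The cells at 100 CPM or more were 10 of 44, 11 of 40 and 15 of 47 against 22 of 37, 16 of 41 and 19 of 48. MouseID-505190 is the closest of its group to eHGT_128h. Npy, the precursor of neuropeptide Y, had a high mean in the same mouse, at 707 CPM in gated cells against 116 and 143 CPM in the other mice of eHGT_140h, while eHGT_128h stood at 552, 537 and 543 CPM. Its share of gated cells at 100 CPM or more of Npy, 11 of 47, was near those of its group (8 of 44 and 8 of 40), and its highest cell had 10450 CPM. MouseID-505189 of eHGT_079h, with the same library prefixes, had Npy at 972 and Calb1 at 1394 CPM in its gated cells. The mice of eHGT_079h with letter G, MouseID-473544 and MouseID-475241, had Npy at 702 and 262 CPM and Calb1 at 807 and 270 CPM. The part of the prefix in these values was not tested.

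Synpr (chr14:13284780-13616340) had the largest gated difference of the 10, at 8.93, 16.7 and 22.4 CPM against 78.8, 156 and 71.0 CPM, with a log2 difference of -2.59 (SE 0.34, limma adjusted p = 0.16). It was detected at 100 CPM in a minority of gated cells, 5 of 131 and 18 of 126. Crhbp (chr13:95431371-95444924), which binds corticotropin-releasing hormone, was far more widespread. It stood at 237, 187 and 288 CPM against 528, 370 and 460 CPM, and 60.1% ± 4.53 against 83.8% ± 5.06 of gated cells reached 100 CPM (SD, n = 3 each). Ap1s2, a subunit of the AP-1 clathrin adaptor, stood at 113, 103 and 106 CPM against 156, 221 and 158 CPM.

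**Figure D4:**
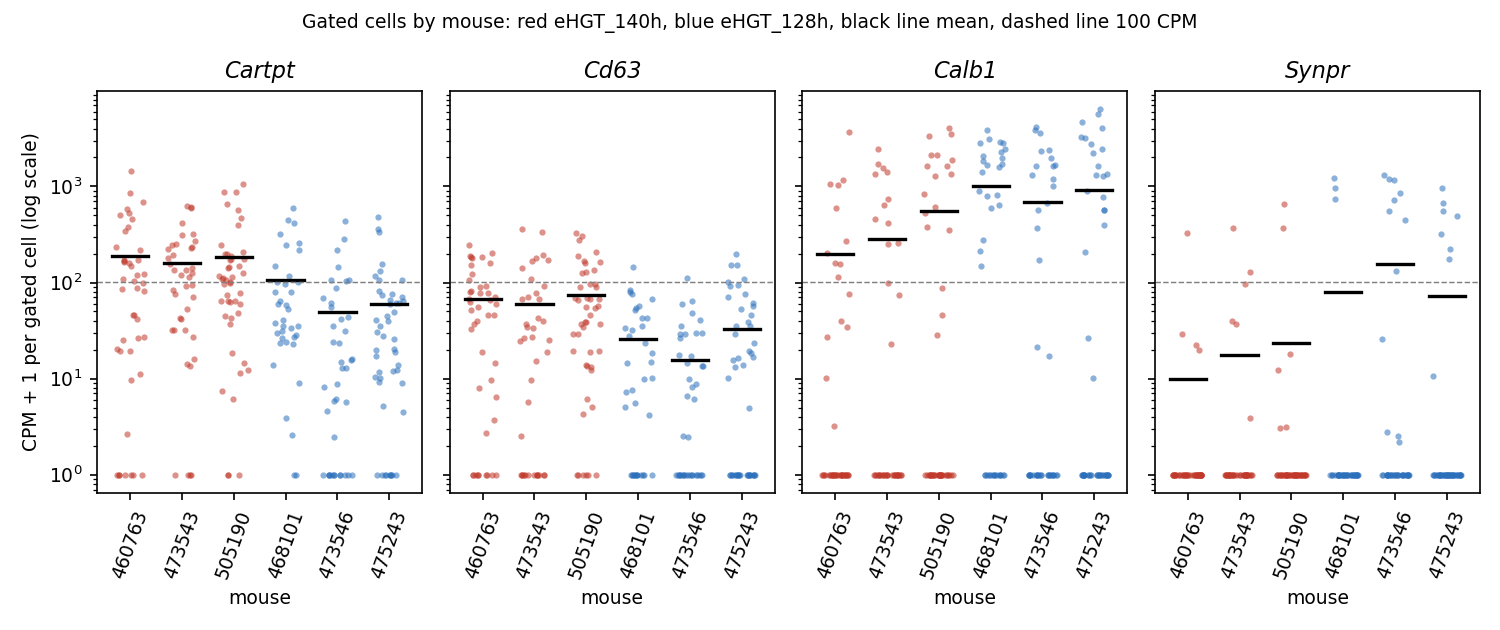
Cartpt, Cd63, Calb1 and Synpr in each gated cell (CPM + 1, log scale) by mouse, with 1 point per cell, a black line at the mean of the mouse and a dashed line at 100 CPM. For Calb1 and Synpr every mouse has cells at 0 and cells above 100 CPM.

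Cartpt and Calb1 were set against each other in the gated cells. Cells with Cartpt at 100 CPM or more and Calb1 under it made up 40.9%, 35% and 34.04% of the gated cells of eHGT_140h, and 5.41%, 7.32% and 10.4% of those of eHGT_128h. Cells with Calb1 alone were 15.9%, 10% and 14.9% against 37.8%, 29.3% and 33.3%. The mice of the groups stand apart for both classes, while cells with both transcripts (6.82% to 17.5% against 6.25% to 21.6%) overlap. Cartpt and Calb1 were each picked for no overlap in gated cells, so classes built from them standing apart is no further result.

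Mean Cartpt was also taken in the gated cells on each side of 100 CPM of Calb1. Among gated cells with Calb1 under 100 CPM, mean Cartpt was 204, 143 and 196 CPM in 34, 29 and 32 cells of eHGT_140h, and 53.3, 25.3 and 53.4 CPM in 15, 25 and 29 cells of eHGT_128h. Among cells with Calb1 at 100 CPM or more it was 134, 197 and 151 CPM against 139, 83.0 and 67.8 CPM, where MouseID-468101 falls between the mice of eHGT_140h. These splits of the gated cells were made after Calb1 was seen to differ, and they carry no test. Cartpt itself was picked for no overlap in gated cells.

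**Figure D5:**
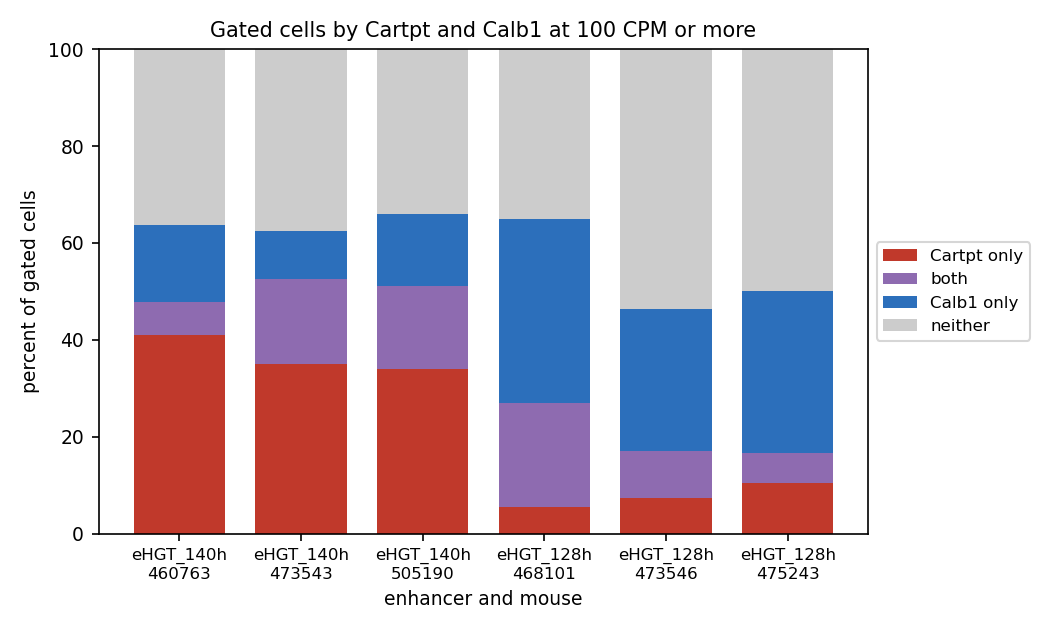
Gated cells of each mouse by Cartpt and Calb1 at 100 CPM or more, as a percent of its gated cells, with bars that add up to 100%. Cells with Cartpt alone make up 34.04% to 40.9% in eHGT_140h and 5.41% to 10.4% in eHGT_128h. Both genes were picked for no overlap between mice in gated cells.

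Across the series, 21 mice of 8 enhancers had at least 5 gated cells. Their gated Cartpt ran from 41.7 CPM in a mouse of eHGT_082h to 523 CPM in a mouse of hDLXI56i, with the mice of eHGT_140h at 158 to 188 CPM. Mice of eHGT_064h, at 107 to 298 CPM, lay on both sides of them. A high gated Cartpt level was thus not seen under eHGT_140h alone. Other genes also differed between mice of the same enhancer. In the mice of eHGT_082h gated Synpr was 222.9 and 21.99 CPM and Sema3a 66.26 and 32.43 CPM. In those of eHGT_023h gated Calb1 was 1190 and 196.2 CPM. Synpr varied less in eHGT_079h, at 60.66, 74.51 and 119.3 CPM. No gated fit held the mice of other enhancers, so the part of such spread in the gated differences was not tested.

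Genes that define the Pvalb class as a whole gave no call. Over all cells 0.0628% of all genes tested were called, so 0 calls in this list or those below do not show that the groups are alike. Of the 10 class markers, 10 were tested over all cells and 0 were called, with a median log2 difference of 0.05 beside 0.00 for all genes tested. Cox6a2, a muscle-type subunit of cytochrome oxidase found in Pvalb cells, was the 1 marker without overlap (10% of the list, beside 5.30% of all genes with all mice higher), at 340, 415 and 364 CPM against 231, 229 and 248 CPM (log2 difference 0.65, limma adjusted p = 0.085). Syt2, the fast calcium sensor of release, stood at 126 ± 27.3 and 115 ± 26.9 CPM in gated cells, and Lpl, lipoprotein lipase, at 98.0 ± 16.6 and 107 ± 12.05 CPM (SD, n = 3 each).

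Channel and synapse lists were likewise without calls, beside 0.0628% of all genes. Among the 13 genes for fast-spiking channels, 0 were called over all cells, 1 had all mice lower (7.69%, beside 5.18% of all genes) and the median log2 difference was -0.03. Kcnc1, a potassium channel subunit for brief spikes, stood at 659 ± 167 against 625 ± 13.96 CPM in gated cells, and Scn1a, a sodium channel subunit, at 544 ± 99.8 against 512 ± 46.3 CPM. Kcns3, a modifying channel subunit, was the 1 without overlap, at 142 ± 10.4 against 172 ± 8.29 CPM (SD, n = 3 each). Over all cells the 15 genes of fast release had 0 calls and 0 members without overlap, and so had the 8 tested genes of the perineuronal net.

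Transcription factors of the lineage showed no call either, beside 0.0628% of all genes. The 7 that were tested over all cells had a median log2 difference of 0.00. Lhx6 stood at 126 ± 14.6 against 120 ± 3.79 CPM in gated cells and Satb1 at 193 ± 38.3 against 186 ± 17.6 CPM (SD, n = 3 each).

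Of the 16 neuropeptide genes, 11 were tested over all cells and 1 was called, Cartpt, beside 0.0628% of all genes. As Cartpt is also a labelling marker, this call is no result for the list. The list's median was -0.56 over all cells and -0.22 among the 9 tested in gated cells, beside 0.00 for all genes in both, and its members went both ways. Cort, the precursor of cortistatin, stood at 199, 174 and 269 CPM against 387, 325 and 386 CPM without a call (log2 difference -0.79, limma adjusted p = 0.18), and Tac1 at 741, 632 and 529 CPM against 540, 481 and 488 CPM with overlap. Among the 11 tested markers of Pvalb subtypes 0 were called and 2 had all mice lower (18.2%, beside 5.18% of all genes), Calb1 and Akr1c18. Akr1c18, a steroid dehydrogenase, overlapped in gated cells, at 186, 172 and 146 CPM against 124, 319 and 214 CPM.

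Cell adhesion and guidance genes are the largest list. Of 30 tested over all cells, 1 was called, Sema3a, beside 0.0628% of all genes. All mice were higher for 4 of the 30 (13.3%, beside 5.30% of all genes) and lower for 6 (20%, beside 5.18%). In gated cells these were 2 (6.67%) and 4 (13.3%) of 30, beside 5.01% and 4.82%, and 0 were called. Sema5a, a semaphorin of the membrane, stood at 43.2 ± 2.09 against 21.6 ± 6.10 CPM and Pcdh8, a protocadherin, at 19.4 ± 4.99 against 43.2 ± 8.96 CPM over all cells (SD, n = 3 each), and neither was called. Of 14 ionotropic glutamate receptor subunits 0 were called, 2 had all mice higher (14.3%, beside 5.30% of all genes) and 3 lower (21.4%, beside 5.18%). Grik1, a kainate receptor subunit, was among the higher at 102 against 63.4 CPM, and the AMPA receptor subunit Gria3 among the lower at 254 against 343 CPM.

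Markers of excitatory neurons and of non-neuronal cells had low sums. The summed level of 12 glutamatergic markers was 43.5 to 83.2 CPM in eHGT_140h and 48.8 to 58.4 CPM in eHGT_128h, and 0 of the 4 tested were called. For 21 non-neuronal markers the sums were 30.2 to 150 CPM against 25.5 to 33.2 CPM, and MouseID-473543 was the highest. Of 4 markers of chandelier cells, Vipr2 was at 0 in 5 of the 6 mice and at 0.13 CPM in MouseID-473543. Nkx2-1 was at 0 in all 6 mice and Unc5b at 0.48 CPM or less. Pthlh, which is also on the list of Pvalb class markers, stood at 78.1, 58.9 and 86.6 CPM against 51.7, 39.9 and 64.3 CPM, with overlap. Markers of Lamp5 and Sncg cells summed to 449, 509 and 1000 CPM against 1019, 804 and 1095 CPM, and Npy and Cck, the precursor of cholecystokinin, are among these 9 genes. By gene the direction differed: the 5 tested had a median log2 difference of 1.16 and 0 calls. All mice were higher for 2 of them, Id2 and Cnr1 (40%, beside 5.30% of all genes). Id2 stood at 34.7, 14.7 and 14.4 CPM against 7.52, 5.40 and 5.14 CPM. Cck was at 210, 242 and 233 CPM against 165, 116 and 226 CPM, and the groups overlap. Xist was at 0 in all 6 mice.

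Of the 13 tested markers of Sst cells 0 were called over all cells (beside 0.0628% of all genes), and the median log2 difference was -0.26. Cbln4 stood at 1.43, 0.63 and 1.78 CPM against 36.5, 9.47 and 10.2 CPM (log2 difference -2.88, limma adjusted p = 0.066). The 20 cells with Sst at 300 CPM or more held 81.7% of its sum in eHGT_128h, and gated cells gave 1.49, 0.12 and 1.82 CPM against 2.13, 2.99 and 3.29 CPM.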

How the data were processed

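The authors deposited 1 table of CPM per gene and cell for the series. Per the submitters' processing notes, STAR and mm10 were used. The counting program, annotation and filters on cells are not named in the sources used here. In each cell, 100% of values above 0 were whole multiples of 1 read (tolerance 0.01 read), which gave the reads per cell. The mouse was the replicate. Mean CPM per mouse + 1 was compared on a log2 scale with limma 3.58.1 (trend and robust, statmod 1.5.0, R 4.3.3), keeping genes that reached 1 CPM in 2 or more mice, with Benjamini-Hochberg adjustment over all genes tested. For shares of cells the test was an exact permutation over the 20 assignments of mice, 2-sided. The fit was tested on simulated data.

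The members, gene lists and tests were chosen with earlier results of these data known. Named genes were the called genes with at least 20 CPM in the higher group and no overlap between mice, up to 10 in each direction (5 in gated cells), or, with fewer than 5 calls, the 10 of smallest p. Sex-linked transcripts, genes with placeholder symbols, pseudogenes, ribosomal protein genes and mitochondrial genes were not named by this rule. The labelling markers Pvalb, Cartpt, Sst and Mybpc1 and members of the lists were added. Nothing says whether the mice came from separate litters or virus batches. All cells were used, no doublet caller was run, and 0 cells of the 6 mice repeated the values of another. Figures were drawn with matplotlib 3.10.9.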

Additional observations from a re-analysis of the deposited data

How the results depend on the processing

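Over all cells, the 9 calls became 3 with a pseudocount of 0.1 CPM, 4 with 10 CPM (2 in each direction), 1 without a filter, 14 with a filter of 5 CPM in 3 mice, and 0 with limma voom on recovered reads (chosen after seeing the data), with all 33 mice in the fit and with the prefix letter added to that fit. Leaving out 1 mouse at a time gave 1 to 26 calls: 1 without MouseID-460763 or MouseID-473546, 2 without MouseID-468101 or MouseID-475243, 20 without MouseID-473543 and 26 without MouseID-505190 (14 higher). The mean of log2(CPM + 1) over cells gave 10 calls, 2 higher and 8 lower, of which 2 were among the 9, and shifted the median of all genes to -0.10. Fxyd6 kept its call in 11 of 15 alternatives. None of the 9 changed sign, which is no support for them because they were picked by their p in these data. In gated cells the 0 calls became 1 with a gate at 1000 CPM, and 0 to 6 without 1 mouse (6 without MouseID-505190). A gate with Sst under 10 CPM, also chosen after seeing the data, left 0. The share of gated cells turned to -1.64 percentage points (eHGT_140h minus eHGT_128h) at 1000 CPM and the share with Sst alone to 0.775 at 100 CPM. The cause was not tested. edgeR and DESeq2 were planned for recovered reads and were not run. No paired analysis was possible because the groups share no mouse number. Genes near 1 CPM rest on a few reads in a few cells, which limits what Fxyd6 and AW551984 can show.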

Other observations

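Genes of the interferon response were at low levels in both groups. Ifit3 stood at 5.74, 4.68 and 2.70 CPM against 16.4, 14.4 and 11.4 CPM over all cells, and Ifit1 at 0.04, 2.38 and 0 CPM against 10.7, 5.85 and 5.13 CPM. Neither was called (limma adjusted p of 0.15 and 0.19), and 3 of the 6 tested genes of the list had all mice lower (50%, beside 5.18% of all genes). The 21 cells of eHGT_128h outside the gate held 74.2% of the Ifit1 sum and 49.9% of the Ifit3 sum, and the gated mice overlap for both genes.

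Tcap, a sarcomere protein gene that was picked after its values were seen, stood at 109, 75.1 and 80.9 CPM in eHGT_140h and 34.5, 25.04 and 47.2 CPM in eHGT_128h (log2 difference 1.31, limma adjusted p = 0.10). In gated cells it reached 100 CPM in 30.5% ± 5.07 and 11.02% ± 1.38 of cells (SD, n = 3 each), without a test. Cnr1, the cannabinoid receptor, stood at 48.2, 66.0 and 59.0 CPM against 22.9, 25.7 and 26.7 CPM over all cells (adjusted p = 0.054 in limma), while gated mice overlap.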
